A study of Homo sapiens with 12 samples.

Results

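Cerebral organoids are cultures in which human pluripotent cells pass through embryoid bodies and neural induction and form tissue resembling the early brain. In this series they were grown from the embryonic stem cell line H1, either wild-type (WT) or carrying a c-Jun knockout made by CRISPR editing, for which there were 2 clones (KO#2 and KO#10). The libraries described here are the 6 collected at day 12, of 12 in the whole series, and the comparison is replicate set 2 (labelled rp2, 3 libraries, WT, KO#2 and KO#10) against replicate set 1 (labelled rp1, the same 3 lines). The members were chosen by day and set number in the sample titles, not by any measured value. All 6 libraries share the H1 background, the induction protocol and the day, and differ in line and in set number. Each library pooled several organoids, and each KO line is a single clone. The labels give the set as a number only, without saying whether the sets were separate differentiations, extractions or sequencing runs, so p-values measure the spread between these libraries, which may be technical.

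The deposited value of each gene is a whole-number normalized score, referred to as the value below. Every library held 10976 genes with a median value of 17 and a highest value of 5585, and the libraries held between 269 and 271 distinct values. At the top of the scale genes therefore sat on a small number of shared levels such as 5585 and 900, and a change there is a step between levels. The number of reads behind the values is unknown. At day 12 between 214 and 248 genes were at 0 in the set 1 libraries and between 151 and 171 in the set 2 libraries, while at day 24 the order was the opposite, with 65 to 76 in set 1 and 102 to 115 in set 2. The part of these zeros in the differences below was not tested.

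The sample labels name the tissue as embryonic stem cells under organoid induction. In the 6 libraries, the values of 20 measured neural progenitor markers summed to between 2248 and 3274 per library, those of 14 pluripotency markers to between 803 and 1520, those of 4 mesoderm markers to between 3 and 14 and those of 3 blood markers to between 6 and 9. PAX6, a transcription factor of neural progenitors, ranged from 63 to 112, whereas POU5F1, the core pluripotency factor, stood at 107 (set 1) and 136 (set 2) for WT and between 16 and 19 in the libraries labelled KO. HAND1 of the mesoderm list and HBE1 of the blood list were at 0 in all 6. JUN, the edited gene, was at 4, 19 and 14 in set 1 and at 8, 18 and 13 in set 2 (WT, KO#2, KO#10). JUN was thus not lower in the libraries labelled KO, and its value does not check the edit.

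Replicate organoid sets can differ in how far the tissue has progressed, in cell composition and in how the RNA was handled. Between these days organoid neuroepithelium leaves pluripotency, patterns into forebrain and begins to make neurons. Genes of the cytoskeleton, of histones, of RNA processing and of ribosomes are used by nearly every cell, so differences in them are seen in whichever cells make up the sample. In bulk samples fewer cells of a type and less RNA per cell cannot be told apart.

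The set number took a share of the variation at day 12 close to that of the line. Of the total sum of squares over 8885 genes that reached a value of 10 in 2 or more day 12 libraries, the line took 42.3% with 2 degrees of freedom, the set 38.3% with 1 and the remainder 19.4% with 2. On principal component 1, with 41.5% of the variance, the set 2 library of each line lay above its set 1 partner, at 2.6 against -28.1 for WT, 20.8 against -8.7 for KO#2 and 21.8 against -8.3 for KO#10. The mean distance between libraries was 41.4 between the sets within a line (3 pairs, 40.8 to 41.9) and 27.6 between KO#2 and KO#10 of the same set (2 pairs, 25.7 and 29.6). So the clones of a set lay closer together than the same line in both sets. Per gene, the root mean square of the set difference was 0.433 in WT, 0.444 in KO#2 and 0.440 in KO#10 on the log2(value + 1) scale, against 0.778, 0.651 and 0.676 for the change from day 12 to day 24 in the same lines. Across the 8885 genes the set differences correlated between WT and KO#2 with r = 0.459, between WT and KO#10 with r = 0.428 and between KO#2 and KO#10 with r = 0.598, as a description over genes that share the normalization and are not independent replicates.

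For each gene, set 2 was compared with set 1 by limma on log2(value + 1) with the line as a block, and a call required a 2-fold change and an adjusted p below 0.05. Of all genes tested, 58 were called (0.653%). The test called 38 genes higher in set 2, or 0.428% of those tested, and 20 lower, or 0.225%. At the adjusted p alone 404 genes passed, 215 higher (2.42%) and 189 lower (2.13%). The same direction in all 3 pairs was seen for 2087 genes upwards (23.5%) and 1920 downwards (21.6%). At an unadjusted p under 0.05 with the same fold, 74 were higher (0.833%) and 34 lower (0.383%). Without the line term the calls were 21 higher and 15 lower. Leaving out any pair leaves 1 residual degree of freedom, and the calls then fell to 1 higher and 1 lower without WT and to 0 in both directions without KO#2 or KO#10. All the called genes that could still be tested kept their direction in these fits. This is a description only, since each fit reuses 2 of the 3 pairs on which the call was made. For a single gene, the exact two-sided permutation test over 3 pairs cannot go below p = 0.25. Of the called genes, 12 higher and 8 lower reached a value of 10 in libraries of 1 set only, so their passing the filter on low values was tied to the difference itself.

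**Figure D1:**
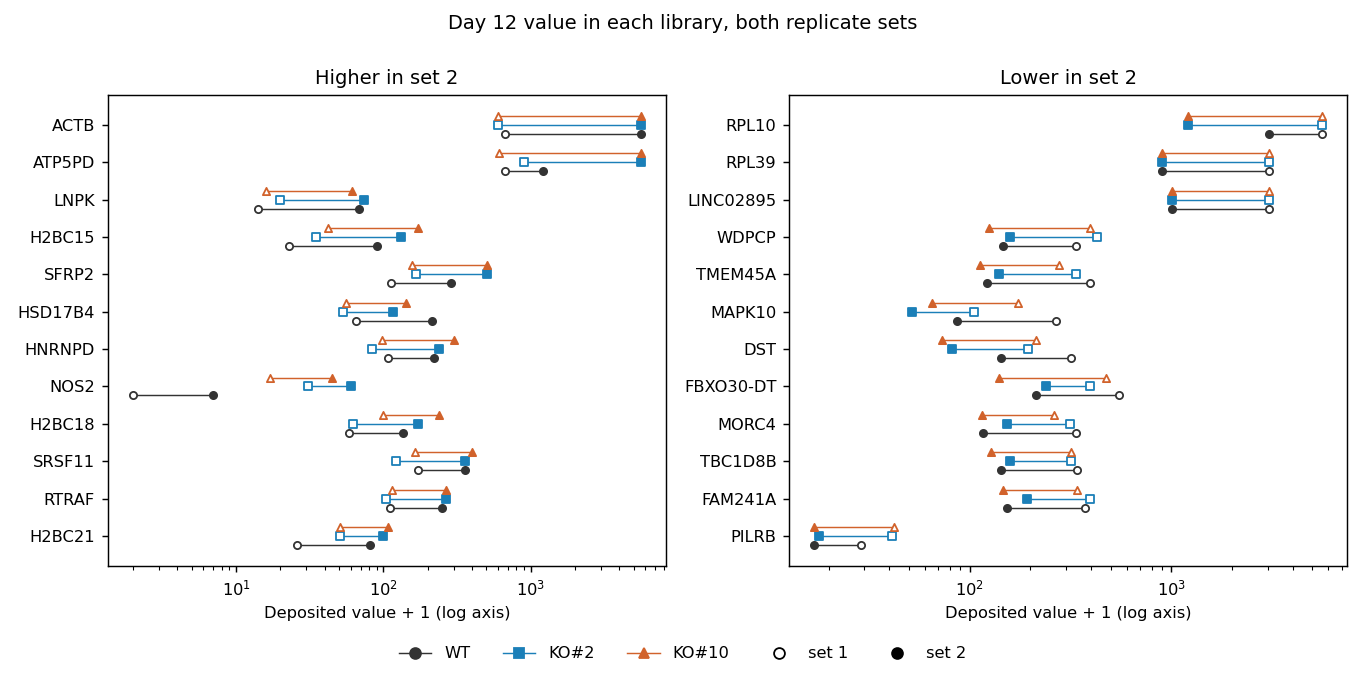
Value + 1 (log axis) of the 12 genes with the largest called difference in each direction, in each day 12 library. Open symbols are set 1, filled symbols set 2, and a line joins the pair of a cell line. ACTB went from 602 to 666 in set 1 to 5585 in all 3 set 2 libraries, and RPL39 from 3036 to 900.

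The largest difference in the higher group was that of ACTB. It encodes beta-actin, the cytoplasmic actin of nearly all cells, and lies on chromosome 7 (5526409 to 5563902, GRCh38). Its value was 666 in WT, 602 in KO#2 and 602 in KO#10 in set 1, and 5585, the highest value of the scale, in all 3 libraries of set 2. The sets did not overlap, and the difference was 3.16 on the log2 scale (SE 0.10, adjusted p = 0.0007), 8.96-fold. In each set 2 library 10 genes, ACTB among them, held the value 5585, so the size of the step is bounded by the scale. ACTG1, the other cytoplasmic actin, had 820, 902 and 1008 in set 1 and 902, 1008 and 902 in set 2, a difference of 0.05 (adjusted p = 0.81). Among 23 tested genes of the actin cytoskeleton list ACTB was the only member called, with a list median of 0.14 against 0.01 over all genes tested.

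Tubulin genes were also among those called. TUBB, a beta-tubulin of dividing and neural cells, had 368, 354 and 424 in set 1 (WT, KO#2, KO#10) and 900, 748 and 900 in set 2, 2.22-fold higher (adjusted p = 0.018). TUBB2A, a beta-tubulin abundant in neurons, had 17, 26 and 17 in set 1 and 37, 52 and 41 in set 2 (log2 difference 1.09, SE 0.10, adjusted p = 0.022). Neither gene's sets overlapped. The beta-tubulins are a family of closely similar genes whose reads the counting could have divided differently, so the share of each member is uncertain.

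Histone H2B genes formed the most numerous family among the called genes. Core histones package DNA, and most of their genes are transcribed during DNA replication in clusters on chromosomes 6 and 1. Of 15 tested H2B genes, 4 were called higher, 11 were higher in all 3 pairs (73.3% against 23.5% of all genes tested) and 1 was lower in all 3 (6.7% against 21.6%). The called share over all genes was 0.428%. H2BC15 had 22, 34 and 41 in set 1 and 89, 131 and 172 in set 2, a log2 difference of 1.98 (SE 0.09, adjusted p = 0.0040). H2BC18 had 57, 61 and 98 in set 1 and 136, 172 and 237 in set 2, a log2 difference of 1.33 (SE 0.10). For both genes every set 2 library was above every set 1 library. H2BC21 rose from 25, 50 and 50 to 80, 99 and 107 (1.23, SE 0.15), and H2BC11 from 64, 100 and 158 to 139, 243 and 290 (1.08, SE 0.11), the sets overlapping only for H2BC11. H2BC4, at the top of the scale, had 750, 1009 and 1009 in set 1 and 3048, 1204 and 5585 in set 2 and was not called (log2 difference 1.58, SE 0.41, adjusted p = 0.076).

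Over all 55 tested replication-dependent histone genes the median set difference was -0.14, and the other histone classes lay on the other side of 0 from H2B. The median set difference was 0.33 over the H2B genes, -0.34 over 12 H2A genes, -0.19 over 11 H3 genes, -0.23 over 12 H4 genes and -0.35 over 5 H1 genes, beside 0.01 over all genes tested. In the KO#10 pair alone, the H3 and H4 medians were 0.10 and 0.11. No gene of these 4 classes was called in either direction. The adjusted p was under 0.05, with a change under 2-fold, for 5 of their genes in the lower direction, among them H2AC14 (901, 1008 and 820 in set 1, 602, 551 and 551 in set 2) and H1-3 (900, 748 and 1007 in set 1, 600, 316 and 470 in set 2). In the higher direction it was under 0.05 for 1, H4C11 (354, 368 and 393 in set 1, 550, 602 and 750 in set 2). H4C11 was named after its values were seen. Histone genes of a class have near-identical coding sequences, so the value of a single copy is uncertain.

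**Figure D2:**
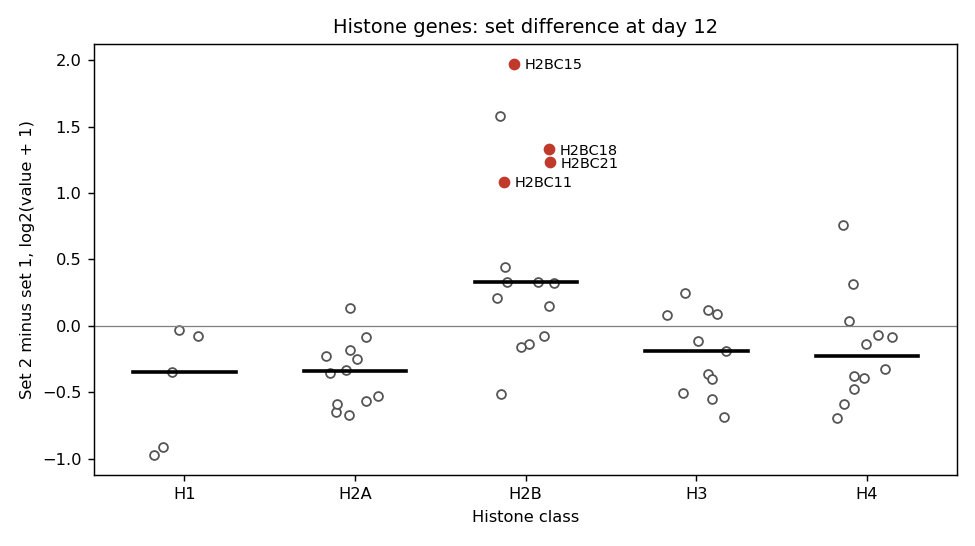
Set 2 minus set 1 on the log2(value + 1) scale for each tested histone gene, by class, with the class median as a bar. Filled points are the 4 called H2B genes. The H2B median is 0.33 and the medians of the other classes lie between -0.35 and -0.19, below 0.

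The sequence before the start of 3 of the 4 called H2B genes is shown because the called H2B genes moved together. The 3 shown are those that hold the octamer named below. H2BC15, the called H2B gene with the largest difference, lacks it and is not shown. The windows are the 150 bases upstream of the RefSeq start (GRCh38.p14), and capitals mark the octamer ATTTGCAT, the CCAAT box and TATAAA, searched on both strands without overlap between the motifs. H2BC18, chr1:149812371-149812520, minus strand; H2BC21, chr1:149886683-149886832, minus strand; H2BC11, chr6:27132796-27132945, minus strand.
H2BC18: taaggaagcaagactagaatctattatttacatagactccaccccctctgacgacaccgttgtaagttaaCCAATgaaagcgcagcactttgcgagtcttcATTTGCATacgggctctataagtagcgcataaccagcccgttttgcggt
H2BC21: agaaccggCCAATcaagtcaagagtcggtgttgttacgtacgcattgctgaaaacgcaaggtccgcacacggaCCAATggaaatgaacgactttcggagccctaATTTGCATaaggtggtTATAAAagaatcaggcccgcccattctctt
H2BC11: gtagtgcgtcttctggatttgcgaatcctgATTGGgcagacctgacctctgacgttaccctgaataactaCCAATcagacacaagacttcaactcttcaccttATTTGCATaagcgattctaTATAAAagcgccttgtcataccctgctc
The octamer, a known element of H2B promoters, stood in 3 of the 4 called H2B genes (not in H2BC15) and in 9 of the 11 other tested H2B genes, beside 1.0% of 27305 RefSeq windows of the same length. CCAAT stood in all 15 and in 24.4% of all windows. TATAAA stood in 2 of the 4 and in 4 of the 11, beside 7.0% of all windows. These letters were therefore present in called and uncalled H2B genes alike, and a match is not a bound site.

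Several higher genes act on RNA. HNRNPD (AUF1) binds AU-rich messages and regulates their decay. Its values were 106, 83 and 97 in set 1 and 220, 236 and 302 in set 2, without overlap (log2 difference 1.39, SE 0.13, adjusted p = 0.024). SRSF11, a serine- and arginine-rich splicing factor, had 172, 121 and 164 in set 1 and 356, 356 and 396 in set 2 (1.29, SE 0.12). RTRAF, a component of the tRNA ligase complex, had 110, 104 and 114 in set 1 and 250, 266 and 266 in set 2 (1.25, SE 0.09). Each of the 3 genes was above its set 1 range in every set 2 library. Of 32 tested splicing factors 2 were called, HNRNPD and SRSF11, beside 0.428% called higher over all genes tested. In all 3 pairs 10 were higher (31.2% against 23.5% of all genes tested) and 5 lower (15.6% against 21.6%). The list median was 0.14. HNRNPA1, at the top of the scale, had 903, 903 and 822 against 1204, 1204 and 5585 and was not called (adjusted p = 0.16). EIF3H, a subunit of the translation initiation factor eIF3, was the only called member of 57 translation factors (186, 206 and 250 in set 1, 452, 452 and 396 in set 2, log2 difference 1.02). This list had 25 members higher (43.9%) and 7 lower (12.3%) in all 3 pairs and a median of 0.12. SNHG22, a host gene of small nucleolar RNAs, had 4, 8 and 7 in set 1 and 21, 27 and 41 in set 2 (2.06, SE 0.17). It reached 10 in set 2 only, so its passing the filter was tied to the difference. The 29 tested small RNA host genes had a median of -0.20, with 3 higher (10.3%) and 11 lower (37.9%) in all 3 pairs.

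Genes of membranes and metabolism made up further called genes. LNPK (lunapark) stabilizes the junctions of the endoplasmic reticulum network. Its values were 13, 19 and 15 in set 1 and 67, 73 and 60 in set 2, a log2 difference of 2.03 (SE 0.12, adjusted p = 0.0061), 4.09-fold. HSD17B4, a peroxisomal enzyme of fatty acid oxidation, had 64, 52 and 55 in set 1 and 212, 116 and 142 in set 2 (1.40, SE 0.13). In both genes the sets did not overlap. ATP5PD, a subunit of the mitochondrial ATP synthase, had 668, 902 and 604 in set 1 and 1204, 5585 and 5585 in set 2 (2.23, SE 0.43, adjusted p = 0.0495), again a step between the levels of the scale. NOS2, the inducible nitric oxide synthase, had 1, 30 and 16 in set 1 and 6, 59 and 44 in set 2 (1.39, SE 0.18), so that it was higher within each pair while WT in set 2 lay below both KO libraries of set 1. The nuclear oxidative phosphorylation list had a median of -0.08 over 79 tested genes, with ATP5PD as its only call.

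Most glycolytic genes were higher in set 2. Of 19 tested genes of the pathway, 14 were higher in all 3 pairs (73.7% against 23.5% of all genes tested), 0 were lower in all 3, and the median was 0.46, with 0.31 in the WT pair, 0.43 in KO#2 and 0.42 in KO#10. ALDOC, the brain aldolase, was called, with 6, 4 and 5 in set 1 and 15, 15 and 11 in set 2 (log2 difference 1.29, SE 0.20, adjusted p = 0.040). It reached the filter value of 10 in set 2 only, so its entry into the test was tied to the difference. Without a filter it was not called (limma, adjusted p = 0.092). ENO1 (enolase), among the highest in level, had 316, 316 and 335 in set 1 and 550 in all 3 set 2 libraries (0.77, SE 0.09, adjusted p = 0.025, under 2-fold). GAPDH, at the top of the scale, had 1008, 820 and 902 in set 1 and 1008, 902 and 1008 in set 2, with overlapping sets. The hypoxia response list, which includes glucose transporters and mitochondrial regulators that respond to low oxygen, had 0 calls among 15 tested genes and a median of 0.21, and its member VEGFA was lower, with 33, 61 and 46 in set 1 and 22, 43 and 29 in set 2 (-0.57, adjusted p = 0.042, under 2-fold).

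Among genes of neural patterning and signalling there were a few calls. SFRP2, a secreted modulator of WNT signalling made by the neuroepithelium, had 112, 166 and 156 in set 1 and 288, 506 and 506 in set 2 without overlap (log2 difference 1.55, SE 0.10, adjusted p = 0.011, 2.93-fold). It was the only called member of 18 tested WNT pathway genes, whose median was 0.10. FZD5, a WNT receptor of the anterior neural plate and eye field, had 264, 277 and 242 in set 1 and 206, 100 and 68 in set 2 and was not called (-1.21, SE 0.27, adjusted p = 0.062). FEZF2, a transcription factor of forebrain identity, had 1, 11 and 6 in set 1 and 4, 22 and 18 in set 2 (1.23, SE 0.20, adjusted p = 0.041). Its level in WT stayed below both KO libraries in either set, so the sets overlapped. The 16 tested anterior neural plate genes had 7 higher in all 3 pairs (43.8% against 23.5% of all genes tested) and 2 lower (12.5% against 21.6%). Their median was 0.28, with 0.04 in WT, 0.31 in KO#2 and 0.56 in KO#10. Low-level calls of neural kind, named after their values were seen, were CNTN2, an axonal adhesion molecule (1, 6 and 6 in set 1, 3, 20 and 21 in set 2), and MEIS2, a homeobox factor (17, 34 and 35 in set 1, 26, 92 and 81 in set 2). CNTN2 reached 10 in set 2 only, so its passing the filter was tied to the difference.

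Neuronal genes were higher in set 2 in most of the tested members, at widely different levels and with 0 calls. Of 24 measured genes 13 passed the filter on low values. In all 3 pairs 10 of these were higher (76.9% against 23.5% of all genes tested) and 0 lower (against 21.6%). Their median was 0.61, with 0.74 in WT, 0.42 in KO#2 and 0.58 in KO#10. Summed over all 24, the list ranged from 823 to 1102 in set 1 and from 1369 to 1629 in set 2, without overlap. A large part of these sums came from TUBA1A, the alpha-tubulin of migrating and postmitotic neurons. It had 279, 369 and 370 in set 1 and 507, 604 and 508 in set 2 (0.68, SE 0.11, adjusted p = 0.041, under 2-fold). NEFM, a neurofilament subunit, had 2, 2 and 1 in set 1 and 6, 12 and 13 in set 2 and missed the threshold (2.05, SE 0.41, adjusted p = 0.053). It passed the filter through set 2 only. The genes that mark postmitotic neurons most sharply were near 0, with ELAVL4 between 0 and 2 and DCX between 2 and 6 over the 6 libraries. Among 19 tested neural progenitor genes 5 were higher (26.3%) and 4 lower (21.1%) in all 3 pairs and the median was 0.07. VIM, the intermediate filament of neuroepithelium, had 138, 264 and 235 in set 1 and 242, 424 and 335 in set 2 (0.67, adjusted p = 0.037, under 2-fold). FABP7, a lipid-binding protein of radial glia named after its values were seen, had 59, 186 and 178 in set 1 and 53, 53 and 44 in set 2 (-1.31, SE 0.35, adjusted p = 0.082).

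**Figure D3:**
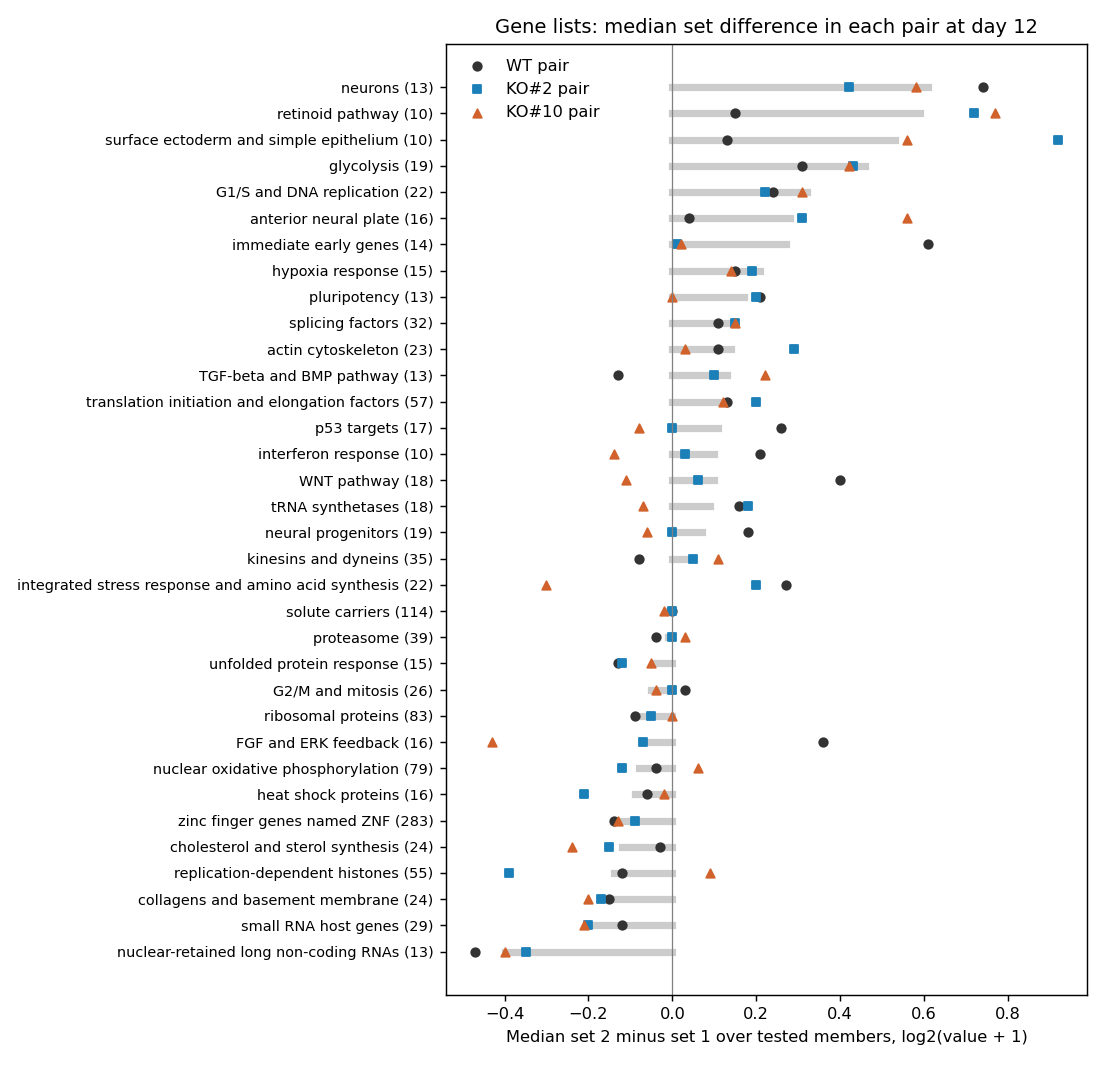
Median set difference on the log2(value + 1) scale of each gene list with at least 9 tested members (number in brackets), separately for the WT, KO#2 and KO#10 pairs, with the median of the fitted differences as a grey bar. The neuron and glycolysis lists lie above 0 and the nuclear-retained long non-coding RNAs below 0 in all 3 pairs.

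The cell cycle lists differed from each other. Of 22 tested genes of G1/S and DNA replication 13 were higher in all 3 pairs (59.1% against 23.5% of all genes tested). The lower ones were 3 (13.6% against 21.6%), and the median was 0.32 with 0 calls. MCM3, a subunit of the replicative helicase, had 90, 69 and 86 in set 1 and 152, 117 and 124 in set 2 (0.68, SE 0.10, adjusted p = 0.036, under 2-fold). Of 26 genes of G2/M and mitosis 9 were higher (34.6%) and 10 lower (38.5%) in all 3 pairs, with a median of -0.05. The pluripotency list had a median of 0.17 over 13 tested genes and 0 calls. Its best-expressed member LIN28A, an RNA-binding protein of stem cells, had 393, 335 and 335 in set 1 and 452, 302 and 302 in set 2.

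The retinoid and epithelial lists had larger medians in the pairs labelled KO than in the WT pair. The 10 tested retinoid pathway genes had a median of 0.15 in WT, 0.72 in KO#2 and 0.77 in KO#10, with 0 calls. CRABP2, a carrier of retinoic acid, had 128, 154 and 164 in set 1 and 186, 266 and 278 in set 2 (0.69, adjusted p = 0.035, under 2-fold). The 10 tested genes of surface ectoderm and simple epithelium had medians of 0.13, 0.92 and 0.56 in WT, KO#2 and KO#10, with 0 calls, and CLDN6, a tight junction protein, had 83, 9 and 16 in set 1 and 78, 30 and 38 in set 2. Summed over the 13 measured epithelial genes the values ranged from 212 to 389 in set 1 and from 347 to 411 in set 2 and so overlapped. Whether the set difference itself differed between WT and the libraries labelled KO was tested for every gene, and limma called 0 genes in either direction (percent called 0, smallest adjusted p = 0.16), with 72 (0.81%) and 86 (0.968%) genes at an unadjusted p under 0.05 and a change of at least 2-fold.

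In the lower group, ribosomal protein genes headed the list by size. RPL10 and RPL39 encode proteins of the large ribosomal subunit. RPL39, on chromosome X (119786504 to 119791630), had 3036 in all 3 libraries of set 1 and 900 in all 3 of set 2 (log2 difference -1.75, SE 0.09, adjusted p = 0.0051). Its 3 pairs were identical, so the spread behind this SE and adjusted p came from the trend over all genes. RPL10 had 5585 in all 3 of set 1 and 3043, 1202 and 1203 in set 2 (-1.77, SE 0.28, adjusted p = 0.040). Both are steps between the highest levels of the scale, which hold few genes each. Over all 83 ribosomal protein genes, 2 were called lower and 0 higher, beside 0.225% called lower and 0.428% called higher over all genes tested. In all 3 pairs 10 were higher (12% against 23.5% of all genes tested) and 27 lower (32.5% against 21.6%), and the median was -0.07 against 0.01. Their summed value ranged from 86803 to 89278 in set 1 and from 74178 to 81339 in set 2, without overlap. These sums include the steps of RPL10 and RPL39, whereas the median of the list was near 0. A fall of the whole family is therefore not read from the sums.

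A further 6 of the 12 largest called falls had values of similar size. They were WDPCP (a ciliary planar polarity protein), TMEM45A (a membrane protein), FBXO30-DT (a divergent transcript), MORC4 (a chromatin ATPase), TBC1D8B (a Rab GTPase-activating protein) and FAM241A. WDPCP had 336, 426 and 395 in set 1 and 146, 158 and 124 in set 2 (log2 difference -1.43, SE 0.12, adjusted p = 0.018), and TBC1D8B had 338, 318 and 318 in set 1 and 142, 158 and 126 in set 2 (-1.19, SE 0.10). Over the 6 genes the values lay between 334 and 552 in WT, between 315 and 426 in KO#2 and between 262 and 473 in KO#10 of set 1. In set 2 they lay between 116 and 212, 138 and 237, and 112 and 146, below the set 1 range of every line. At day 24 they ranged from 9 to 20 in WT, from 128 to 219 in KO#2 and from 33 to 56 in KO#10 in set 1. In set 2 at day 24 the ranges were 10 to 17, 55 to 94 and 36 to 67, so that set 2 lay below set 1 without overlap in KO#2 but not in WT or KO#10.

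The transcripts annotated for these 6 genes (GENCODE 29), which lie on chromosomes 2, 3, 4, 6 and X, share sequence, as found by comparing all runs of 31 bases after their values were seen. Every pair of the 6 shared between 132 and 742 such runs, in the same orientation among WDPCP, FBXO30-DT, MORC4 and TBC1D8B, in the same orientation between TMEM45A and FAM241A, and in the opposite orientation between these groups (TMEM45A and TBC1D8B also shared 35 in the same orientation). Of the runs of 31 bases, 322 were held by at least 4 of the 6 genes. Among the other tested genes, 29 held at least 50 of these 322, and their median set difference was -0.47, with 1 higher and 21 lower in all 3 pairs (72.4% against 21.6% of all genes tested). Over all 78 genes that held at least 1, the median was -0.23. The submitters' processing notes name Bowtie2 and RSEM, but the settings for reads from such shared sequence are not given in the sources used here. The part of shared reads in the result was not tested.

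LINC02895, a long non-coding RNA gene on chromosome 15, had 3046 in all 3 libraries of set 1 and 1009 in all 3 of set 2 (-1.59, SE 0.09, adjusted p = 0.0061). Here too the 3 pairs were identical, and the spread behind the SE came from the trend over all genes. MAPK10 (JNK3), a neural stress-activated kinase that phosphorylates c-Jun, had 266, 104 and 172 in set 1 and 86, 51 and 64 in set 2 (-1.35, SE 0.14, adjusted p = 0.024). DST (dystonin), a cytoskeletal linker, had 318, 193 and 212 in set 1 and 142, 81 and 72 in set 2 (-1.31, SE 0.11), and PILRB, an immunoglobulin-like receptor gene, had 28, 40 and 41 in set 1 and 16, 17 and 16 in set 2 (-1.09, SE 0.14). The sets did not overlap for any of the 20 lower genes (12.6% of all genes tested) or for 31 of the 38 higher ones (13.2%), which is a description only, since the calls were made on the same libraries. The remaining lower genes, named after their values were seen, were at values of 27 or lower and included the bitter taste receptor genes TAS2R3, TAS2R5 and TAS2R31 and PVRIG, a neighbour of PILRB. They reached 10 in set 1 only, so their passing the filter was tied to the difference. An overlap with another gene on the same strand was annotated for 13 of the 20 lower genes (65.0%), for 12 of the 38 higher ones (31.6%) and for 35.3% of all genes tested. Over all genes tested, the median set difference was -0.005 for the 3138 genes with such an overlap and 0.017 for the 5747 without. The overlap was counted over whole gene spans, introns included. Only reads from the shared stretches cannot be told apart by strand, and their part in the values was not tested.

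Non-coding transcripts were more often lower than higher in set 2. Over 249 tested genes not annotated as protein-coding the median set difference was -0.29, with -0.32 in WT, -0.26 in KO#2 and -0.30 in KO#10. In all 3 pairs 14 were higher (5.6% against 23.5% of all genes tested) and 118 lower (47.4% against 21.6%). Among 13 nuclear-retained long non-coding RNAs 2 were higher (15.4%) and 8 lower (61.5%) in all 3 pairs, with a median of -0.40 and 0 calls. MIAT, a nuclear RNA of neural tissue, had 148, 171 and 149 in set 1 and 83, 91 and 72 in set 2 (-0.92, SE 0.09, adjusted p = 0.024, under 2-fold). MALAT1 was at 5585 in all 6 libraries, where a difference cannot be seen. The 283 tested genes named ZNF, most of them zinc finger transcription factors, had a median of -0.12, with 37 higher (13.1%) and 98 lower (34.6%) in all 3 pairs and 0 calls. Sterol synthesis genes had a median of -0.12 over 24 tested, with 3 higher (12.5%) and 11 lower (45.8%) in all 3 pairs and 0 calls. HMGCS1, an early enzyme of the pathway, had 70, 164 and 85 in set 1 and 52, 80 and 51 in set 2 (-0.72, adjusted p = 0.048, under 2-fold). As a description over 8885 genes, the set difference had r = 0.132 with GC content and r = 0.029 with transcript length.

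The remaining lists showed 0 to 1 call each. The immediate early genes, induced within minutes by stimulation, had 1 call among 14 tested, EGR1, with 1, 6 and 3 in set 1 and 4, 25 and 12 in set 2 (1.64, SE 0.25, adjusted p = 0.039). FOS was not called, with 1, 25 and 20 against 6, 23 and 14. Medians were -0.09 for heat shock proteins, -0.04 for the unfolded protein response, 0.00 for the integrated stress response and amino acid synthesis, 0.11 for p53 targets, 0.10 for interferon response, -0.01 for the proteasome, 0.09 for tRNA synthetases, 0.04 for kinesins and dyneins, -0.01 for solute carriers, -0.07 for FGF and ERK feedback, 0.13 for the TGF-beta and BMP pathway and -0.16 for collagens and basement membrane, each with 0 calls. Few members could be tested for proneural and Notch ligand genes (5 of 11 measured), neural crest and mesenchyme (6 of 17), thalamus and diencephalon (3 of 7), endoderm and yolk sac (2 of 15), choroid plexus and roof plate (2 of 9), mesoderm (0 of 4) and blood (0 of 3). Mitochondrially encoded genes, searched by symbols starting with MT-, were absent from the genes measured.

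At day 24 the same contrast was made in 6 libraries that the day 12 fit had not used. limma called 0 genes of 9289 in either direction (percent called 0, smallest adjusted p = 0.46), with 19 higher (0.205%) and 34 lower (0.366%) at an unadjusted p under 0.05 and a change of at least 2-fold. The difference of the set differences between the days was tested over 9952 genes, and 0 were called (smallest adjusted p = 0.14), with 50 (0.502%) and 134 (1.35%) at the unadjusted threshold. Of the 38 genes called higher at day 12, 35 could be tested at day 24, 30 of them were higher in set 2 (85.7% against 49.1% of all genes tested at both days) and 15 were higher in all 3 pairs (42.9% against 14.4%), and their median was 0.43. Of the 20 called lower, 11 could be tested, all 11 were lower (50.9% of all genes) and 3 were lower in all 3 pairs (27.3% against 14.7%), with a median of -0.44. These 11 include the 6 genes that share sequence and are not separate observations. The direction of most called genes that could be tested was thus the same at day 24. Choosing genes by a large day 12 difference brings a smaller size in other libraries by itself. No change of size between the days is therefore read from these medians.

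LNPK stood out for its size at both days. At day 24 it had 21, 30 and 21 in set 1 and 53, 106 and 114 in set 2, a log2 difference of 1.82 (SE 0.23), which did not pass the adjustment over all genes (adjusted p = 0.46). SRSF11 was also higher in each pair at day 24, with 109, 122 and 120 in set 1 and 178, 164 and 164 in set 2 (0.52, SE 0.11), as was FEZF2 with 1, 11 and 19 against 3, 23 and 36 (0.96, SE 0.15). ACTB had 667, 902 and 1204 in set 1 and 902, 3043 and 1008 in set 2 at day 24, with overlapping sets. The H2B genes had a median of -0.02 at day 24, the glycolysis list 0.28 and the neuron list 0.26.

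**Figure D4:**
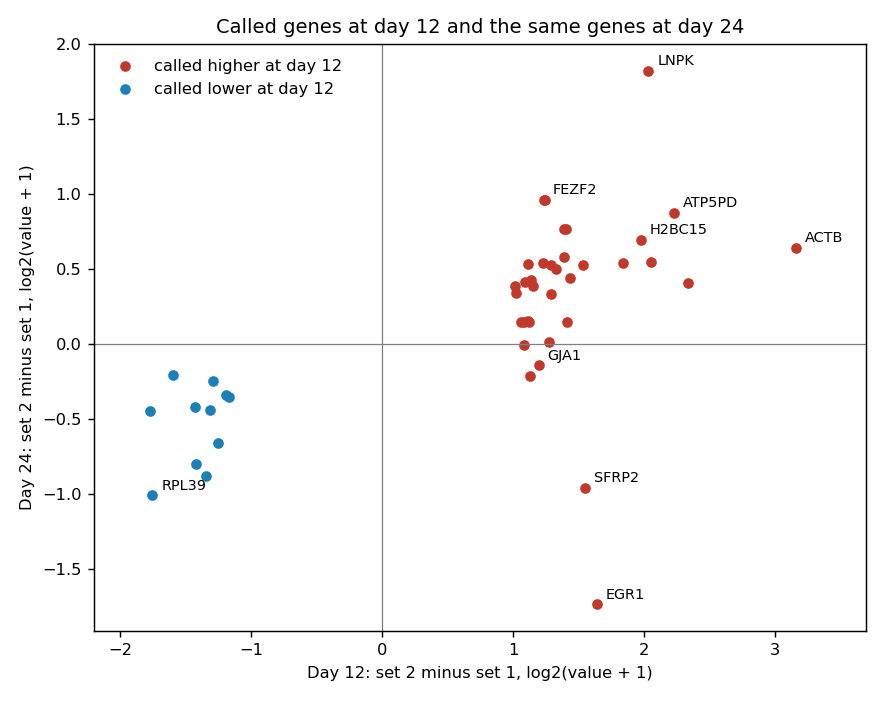
Set 2 minus set 1 on the log2(value + 1) scale at day 12 (x axis) and at day 24 (y axis) for the 46 genes called at day 12 and tested at day 24. All 11 genes called lower lie below 0 at day 24, and 30 of the 35 called higher lie above 0, with EGR1 at -1.73 and SFRP2 at -0.96 the lowest of these 35.

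The pairs were less alike at day 24. Across the 8885 genes the day 24 set differences correlated with r = 0.247 between WT and KO#2, 0.293 between KO#2 and KO#10 and -0.052 between WT and KO#10. Averaged over the 3 pairs, the day 12 and day 24 set differences correlated with r = 0.269 (Spearman's rho 0.284). By line the correlation between the days was 0.177 in WT, 0.266 in KO#2 and -0.005 in KO#10.

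Whether the set difference resembled the change from day 12 to day 24 was described without shared libraries. The time change itself called 585 genes higher (5.88% of 9952) and 574 lower (5.77%). The mean set difference of the libraries labelled KO correlated with the time change of the 4 WT libraries with r = 0.392 (rho 0.337) across 8885 genes, and its projection on that change was 19.6%. By clone, against the time change of the other lines, the values were r = 0.300 and 19.4% for KO#2 and r = 0.408 and 28.7% for KO#10. The WT set difference correlated with the time change of the 8 KO libraries with r = 0.140 (rho 0.170), with a projection of 9.0%. These are descriptions across genes that share the normalization, and whether the KO and WT relations differ was not tested.

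By size of the time change in WT, the KO set difference was ordered throughout. Its median was -0.57 over 151 genes that were lower at day 24 by 2 or more on the log2 scale, -0.28 over 695 genes lower by 1 to 2, 0.04 over 5096 genes within 0.5 of no change, 0.20 over 411 genes higher by 1 to 2 and 0.82 over 48 genes higher by 2 or more. The WT set difference showed no such order at the lower end. Its median was 0.11 over 88 genes lower by 2 or more in the KO libraries, -0.11 over 477 lower by 1 to 2 and -0.14 over 1166 lower by 0.5 to 1, and then 0.08, 0.15 and 0.19 over genes higher by 0.5 to 1, 1 to 2 and 2 or more.

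**Figure D5:**
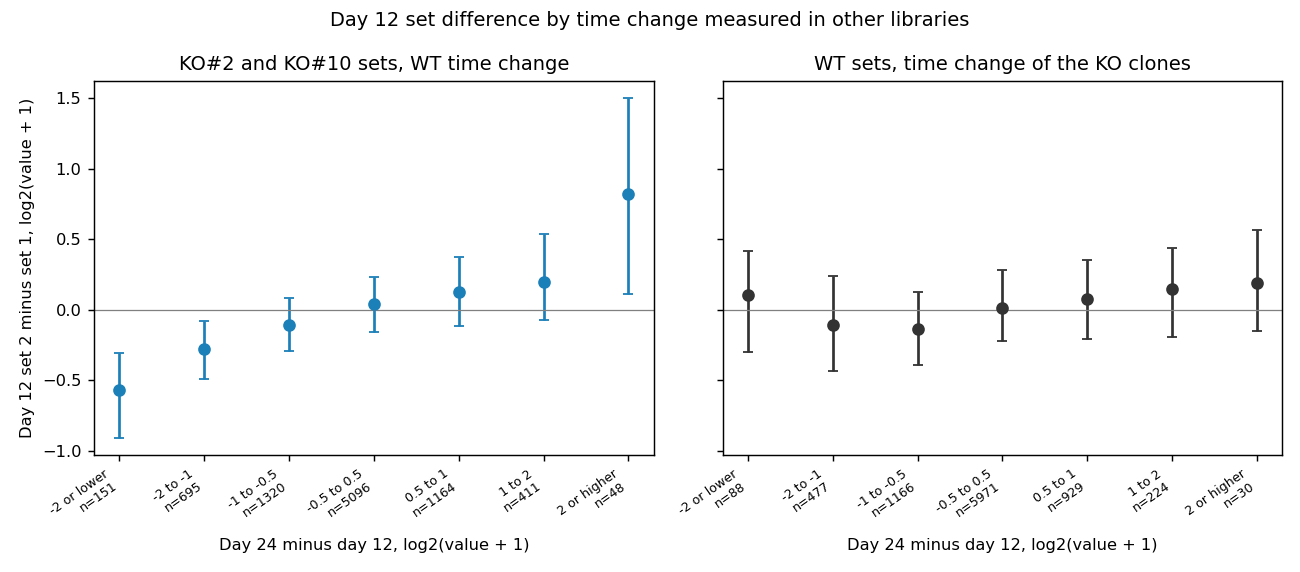
Median (points) and quartiles (bars) of the day 12 set difference on the log2(value + 1) scale, for genes grouped by their change from day 12 to day 24 in libraries of the other genotype. In the KO pairs (left) the median goes from -0.57 to 0.82, and in the WT pair (right) it lies between -0.14 and 0.19.

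The functions that differed between the sets and those that changed with time matched only for some lists. The medians of the WT pair and of the 2 KO pairs are set beside the time change of the other genotype, over genes tested at day 12. Neurons had 0.74 in the WT pair beside a time change of 1.56 in the KO libraries, and 0.51 in the KO pairs beside 0.03 in the WT libraries. These values leave out the neuron genes that did not pass the day 12 filter. Over the neuron genes tested across all 12 libraries, the time change of all lines had a median of 1.71. Glycolysis had 0.31 beside -0.13 and 0.47 beside 0.33. G1/S and DNA replication had 0.24 beside -0.07 and 0.31 beside -0.40. Over all genes tested the median time change was -0.05 in the WT and in the KO libraries. The -0.07 was thus near that level, and only the 0.31 stood opposite to a time change of the list. Pluripotency had 0.21 beside -2.15 and 0.08 beside -0.35, opposite in sign in both. Sterol synthesis had -0.03 beside 1.25 and -0.21 beside 0.97, and surface ectoderm 0.13 beside -1.49 and 0.72 beside 1.13. Nuclear-retained long non-coding RNAs had -0.47 beside -0.64 and -0.38 beside -0.92, and genes not annotated as protein-coding had -0.32 beside -0.61 and -0.27 beside -1.04, in the same direction in all 4 values. H2B genes had 0.42 beside 0.52 and 0.24 beside 0.33.

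For single genes, H2BC15, set against the time change of all lines, which shares the day 12 libraries, had a set difference of 1.98 and a time change of 2.84 (adjusted p = 0.0025), and TBC1D8B had -1.19 and -2.58 (adjusted p = 0.00017). ACTB had 3.16 and -0.73 (adjusted p = 0.44) and SFRP2 1.55 and -1.56 (adjusted p = 0.013). NOS2 had 1.39 and -2.67 (adjusted p = 0.00042), falling to values between 0 and 4 at day 24. LNPK had 2.03 and 0.48 (adjusted p = 0.54).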

How the data were processed

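RNA was measured by strand-specific sequencing of ribosome-depleted total RNA. The values deposited by the authors are a normalized score per gene in whole numbers, with the same median and highest value in every library; how it was scaled is not given in the sources used here. Per the labels, the submitters' processing notes name bcl2fastq, Bowtie2, RSEM and the build mm10, although all 10976 identifiers are human and 10975 listed intervals overlap their GENCODE 29 gene, 3940 (35.9%) of them identically. Depth is therefore unknown and no count test was used.

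Set 2 was compared with set 1 by limma 3.58.1 (R 4.3.3), lmFit and eBayes with a trend, on log2(value + 1) of genes that reached 10 in 2 or more libraries. The line was a block, since both sets hold the same 3 lines. Fold changes on this scale understate those of low genes. p-values were adjusted by Benjamini-Hochberg over all genes tested. Unless called otherwise, an adjusted p and an SE come from this fit. Both use a moderated spread, which draws on the trend over all genes besides the 3 pairs of the gene itself. The fit was tested on simulated data.

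The 42 gene lists and the genes named were chosen with earlier results of these data known. Named genes are, in each direction, the 12 largest calls with the same sign in all 3 pairs and a mean value of at least 20; of each list, its called members, its 4 members of highest mean value and members changed 2-fold or more in all 3 pairs; JUN; and cell type markers near 0. All other genes named were chosen after their values were seen. Alternatives tried were no filter, a filter of 20, pseudocounts of 5 and 0.1, no line term, no trend, median-centring, correction for length and GC, all 12 libraries, unadjusted p and leaving out each pair. RefSeq promoter windows matched all 15 tested H2B genes by symbol. Some items are not reported here.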

Additional observations from a re-analysis of the deposited data

Results flagged for a closer look

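SFRP2 and EGR1 differed between the days in opposite directions in every pair. SFRP2 was higher in set 2 in all 3 pairs at day 12 and lower in all 3 at day 24, where it had 100, 162 and 94 in set 1 and 83, 50 and 49 in set 2 (WT, KO#2, KO#10), and the difference of the set differences was -2.51 on the log2 scale (limma, adjusted p = 0.14). EGR1 was likewise higher in all 3 pairs at day 12 and lower at day 24, with 10, 14 and 3 against 2, 1 and 2, a difference of -3.37 (limma, adjusted p = 0.19). Neither passed the adjustment over 9952 genes. At day 12 EGR1 reached a value of 10 in set 2 only, so its passing the day 12 filter was tied to the difference.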

How the results depend on the processing

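Of the calls at day 12 (38 higher, 20 lower), all 58 were again called after median-centring and after correction for length and GC, which called 61 and 31. Without a filter the calls were 2 and 0, with a pseudocount of 5 they were 23 and 11, and without the line term 21 and 15. A filter of 20 called 31 and 12, all 12 libraries in 1 fit 34 and 11, and an unadjusted p 74 and 34. Leaving out a pair gave 0 to 1 higher and 0 to 1 lower. At day 24, leaving out a pair or the line term gave 0 calls. The time change, fitted without a block, called 585 and 574, and with the replicate number as a block 594 and 579; leaving out a library gave 516 to 631 and 503 to 617. The set number of a line is not shown to pair the days, since the correlation of set differences between days was 0.177 in WT, 0.266 in KO#2 and -0.005 in KO#10. Because the values carry no depth, the error of low values and of steps between the highest levels could not be estimated from counting.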
